A study of Mus musculus with 4 samples.

Results

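Glycolysis genes were followed through the immune cells of the mouse brain after cardiac arrest. The set held 10 genes, chosen by symbol from the 32285 genes in the deposited count matrices: Slc2a1, Hk2, Pfkp, Aldoa, Tpi1, Gapdh, Pgk1, Eno1, Pkm and Ldha. The symbols matched 11 entries, because Aldoa is listed under 2 gene identifiers. The annotated Aldoa gene (ENSMUSG00000030695) carried 49163 counted molecules over all barcodes and stands for Aldoa below, while its neighbour of the same symbol (ENSMUSG00000114515) carried 104.

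Glycolysis splits glucose into pyruvate in the cytosol and yields ATP without oxygen. Glucose enters through facilitative transporters, is trapped as a phosphate by hexokinase, is committed by phosphofructokinase and is cleaved by aldolase. The later enzymes recover ATP and NADH, and lactate dehydrogenase turns pyruvate into lactate and regenerates NAD. Microglia, the resident macrophages of the brain, and infiltrating monocytes and neutrophils are known to use more glycolysis when activated, and hypoxia-inducible factors bind a short ACGTG core in many promoters of the pathway.

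The libraries came from wild-type C57Bl/6 mice that either went through a cardiac arrest (CA) induced with potassium chloride and were resuscitated, or had sham surgery with no arrest. Brains of perfused mice were taken on day 3 and dissociated mechanically, and Percoll-enriched cells were sorted for CD45, a surface protein of blood-derived and resident immune cells. The 4 groups were aged mice after CA and aged mice after sham (both 18 to 20 months old), and young mice after CA and young mice after sham (both 3 to 6 months old). Each group was 1 droplet library of 3' tags pooled from 3 mice, so mice could not be separated, no group had a replicate and no difference between groups could be tested.

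The libraries held 6794 barcodes in aged CA, 7700 in aged sham, 10794 in young CA and 9038 in young sham, and any pair shared 15 to 32 barcode sequences. Cells were assigned to a class by marker genes, so that a class name below stands for the cells that passed its marker gate, and 73.1% to 93.8% of the kept cells passed as microglia. The share was lowest in aged sham, where 22.7% of the kept cells passed no gate, with a median of 1840 UMIs. The ungated share was 8.17% in aged CA, 6.66% in young CA and 5.36% in young sham. Of the 10 leading genes of the microglial gate 8 were microglial markers, among them Cx3cr1, P2ry12 and Tmem119, and 0 were markers of another class. The gate selected on these same lists, so these counts are not an independent check of identity. The gated microglia numbered 4977 in aged CA, 5512 in aged sham, 9214 in young CA and 8184 in young sham. Depth differed with the groups: the median microglia held 10570 molecules (unique molecular identifiers, UMIs) in aged CA against 3548 in aged sham, and 9606 in young CA against 6126 in young sham. The median mitochondrial share of UMIs was 3.71% in aged CA against 1.96% in aged sham, and 2.58% in young CA against 1.68% in young sham. All levels below are CPM, a gene's UMIs scaled to the UMI total of the class, a share that is not divided by transcript length, so levels are compared between libraries or classes for 1 gene and not between genes. Ratios carry 95% exact intervals that cover counting error only, not the spread between mice.

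The promoter sequence is shown for 4 members, because hypoxia-inducible factors bind the ACGTG core. Of these, Hk2 was lower after CA in microglia at both ages, and Ldha, Pgk1 and Gapdh were higher. The sequences are the 250 bases before the annotated start, from RefSeq on GRCm38.p6, the same assembly as the mm10 build named in the submitters' processing notes. They are written 5' to 3' on the gene's strand, with ACGTG read on either strand (ACGTG or CACGT) in capitals; where both readings overlap the capitals spell CACGTG, the core E-box. Hk2 lies at chr6:82774455-82774704 (minus strand), Ldha at chr7:46845554-46845803 (plus, the first of its 2 listed starts), Pgk1 at chrX:106186850-106187099 (plus) and Gapdh at chr6:125165774-125166023 (minus), and none of the 4 windows overlaps an exon in GENCODE M21. The Ldha and Gapdh windows lie inside the bounds of those genes in GENCODE M21, which places an outer start further upstream.
Hk2: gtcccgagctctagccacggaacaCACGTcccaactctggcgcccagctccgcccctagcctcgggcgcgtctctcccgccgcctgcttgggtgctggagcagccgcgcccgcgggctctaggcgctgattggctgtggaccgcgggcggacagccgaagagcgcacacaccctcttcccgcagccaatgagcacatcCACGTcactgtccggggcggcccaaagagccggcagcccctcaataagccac
Ldha: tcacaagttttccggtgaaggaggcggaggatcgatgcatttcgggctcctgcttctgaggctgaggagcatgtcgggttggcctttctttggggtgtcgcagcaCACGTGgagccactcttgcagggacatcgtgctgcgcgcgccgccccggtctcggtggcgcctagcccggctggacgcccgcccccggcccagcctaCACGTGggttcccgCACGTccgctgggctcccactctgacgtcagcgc
Pgk1: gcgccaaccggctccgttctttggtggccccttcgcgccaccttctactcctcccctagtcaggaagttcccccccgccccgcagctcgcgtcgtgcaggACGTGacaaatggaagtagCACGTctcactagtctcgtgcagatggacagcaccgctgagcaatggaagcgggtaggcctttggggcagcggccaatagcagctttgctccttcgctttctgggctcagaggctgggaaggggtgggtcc
Gapdh: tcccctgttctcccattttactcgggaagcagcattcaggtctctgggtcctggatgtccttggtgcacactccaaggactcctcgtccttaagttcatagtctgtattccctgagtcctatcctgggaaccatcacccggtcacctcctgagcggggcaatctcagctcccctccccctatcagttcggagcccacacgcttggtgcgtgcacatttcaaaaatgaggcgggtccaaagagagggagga
Hk2 held 2 matches and Pgk1 held 2, while Ldha held 5 counted on both strands, 2 of its sites being read on both strands as CACGTG. The Gapdh window held 0, which says only that these letters are not in this window. At least 1 match was found in 6 of the 10 members, and in 18.5% of the 27025 genes in the table. Member windows were 50.4% to 71.2% G and C, against a median of 52.4% over all 32851 windows, and the core itself contains CG.

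The first question was how these genes differed in microglia 3 days after CA. In young mice the later steps of the pathway were higher after CA: Gapdh, Pkm, Ldha, Pgk1 and Eno1 were each more than 2-fold higher, and Hk2 and the scarce Pfkp were lower. In aged mice the same 5 genes were also higher after CA, each by less than 2-fold, while Hk2, Pfkp, Aldoa and Tpi1 were lower. The set therefore did not go one way at either age, and its entry enzyme Hk2 ran against its later enzymes at both ages.

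**Figure D1:**
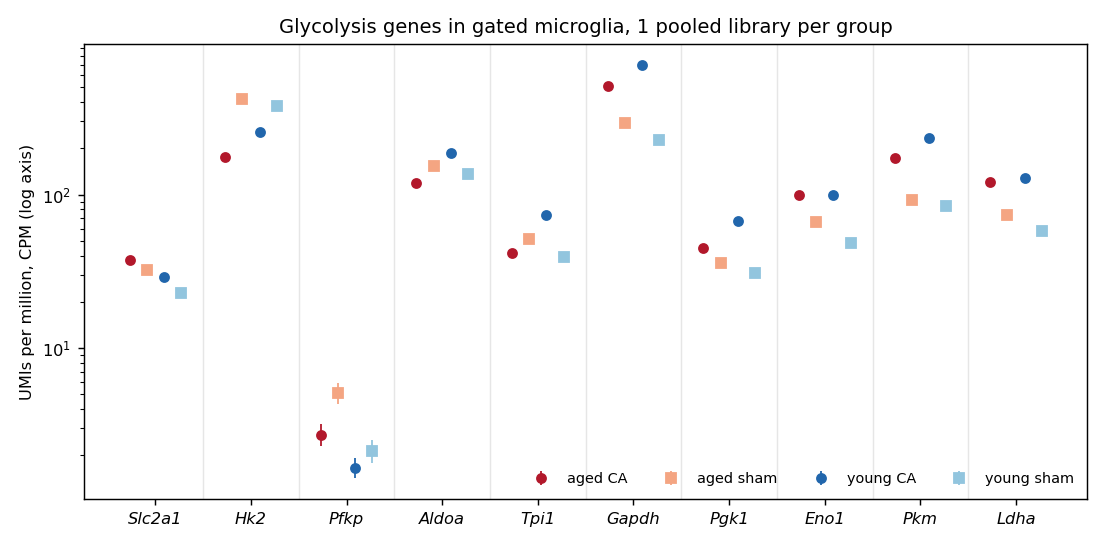
Levels of the 10 genes in gated microglia, in CPM on a log axis, ordered along the pathway. Points are the 4 pooled libraries and bars are exact 95% Poisson intervals, mostly smaller than the points. The Gapdh, Pkm, Ldha, Pgk1 and Eno1 points for CA (circles) lie above those for sham (squares) at both ages, and the Hk2 points for CA lie below.

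Slc2a1 (chr4:119108711-119137983, plus strand, GENCODE M21 on GRCm38 as for all genes below) encodes GLUT1, a glucose transporter of many tissues. Its level was 37.7 CPM in aged CA and 32.5 CPM in aged sham, and 29.1 CPM in young CA and 23.0 CPM in young sham. The ratio of CA to sham was 1.16 (1.08 to 1.25) in aged mice and 1.27 (1.19 to 1.35) in young mice, the smallest of the ratios above 1 at each age.

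Hk2 (chr6:82725025-82774454, minus strand) encodes hexokinase 2, which phosphorylates glucose and binds mitochondria. It stood at 176 CPM in aged CA against 419 CPM in aged sham, and at 257 CPM in young CA against 376 CPM in young sham. The CA level was 0.420 of the sham level in aged mice (0.409 to 0.431) and 0.683 in young mice (0.671 to 0.695). CPM is a share of all RNA, and the CA cells were deeper: the mean number of Hk2 UMIs per microglial cell was 1.95 in aged CA and 2.47 in aged sham, and 2.78 in young CA and 2.93 in young sham. A smaller share of a larger total and a loss of Hk2 molecules therefore cannot be told apart from the share alone, above all in young mice.

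Pfkp (chr13:6579768-6648777, minus strand) encodes the platelet form of phosphofructokinase, the committing enzyme. Microglia held little of it: 2.72 CPM in aged CA against 5.05 CPM in aged sham, and 1.66 CPM in young CA against 2.11 CPM in young sham. It was the only member that did not reach 10 CPM in any of the 4 libraries. Its ratios of 0.539 (0.429 to 0.677) in aged mice and 0.784 (0.620 to 0.991) in young mice rest on 135 to 165 UMIs a library. The direction turned at each age under 1 alternative: the log2 ratio was 0.12 in aged mice in cells of at least 5000 UMIs, and 0.025 in young mice with a stricter marker gate. Neurons, which share these suspensions, carry the gene at far higher levels.

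Aldoa (chr7:126795234-126800751, minus strand) encodes aldolase A, which splits fructose bisphosphate, and Tpi1 (chr6:124810586-124814296, minus strand) encodes triosephosphate isomerase, which interconverts the products. Aldoa was at 119 CPM in aged CA and 155 CPM in aged sham, but at 187 CPM in young CA and 137 CPM in young sham. Tpi1 was at 41.7 CPM in aged CA and 51.1 CPM in aged sham, and at 73.2 CPM in young CA and 39.1 CPM in young sham. Both genes were lower after CA in aged mice and higher in young mice: the log2 ratio of CA to sham was -0.37 in aged and 0.45 in young mice for Aldoa, and -0.29 in aged and 0.91 in young mice for Tpi1. Without cells in the activated states described further on, Aldoa was negative at both ages, at -1.004 in aged and -0.18 in young mice, and Tpi1 was -0.37 in aged and 0.02 in young mice. By depth of the cell, Aldoa was below 0 in 4 of 5 bands in aged mice, with 0.20 in the deepest, and in 2 of 5 in young mice. Over all gated microglia, Aldoa and Tpi1 were the only members of the 10 whose ratio had opposite signs at the 2 ages, and the difference between the ages could not be tested with 1 library a group. The share of all measured genes with opposite signs is not given here.

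Gapdh (chr6:125161715-125166467, minus strand) encodes glyceraldehyde-3-phosphate dehydrogenase, the NADH-producing step that also serves as a usual housekeeping reference. It was at 513 CPM in aged CA against 291 CPM in aged sham, and at 698 CPM in young CA against 226 CPM in young sham. The ratio was 1.76 (1.72 to 1.81) in aged mice and 3.09 (3.04 to 3.15) in young mice, the highest of the set in young mice. Per microglial cell this was 5.68 UMIs in aged CA against 1.71 in aged sham, and 7.54 in young CA against 1.76 in young sham.

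Pgk1 (chrX:106187100-106203699, plus strand) encodes phosphoglycerate kinase 1, the first ATP-forming step. Its level was 44.6 CPM in aged CA and 35.9 CPM in aged sham, and 67.3 CPM in young CA and 30.7 CPM in young sham. The log2 ratio was 0.31 (0.21 to 0.41) in aged mice and 1.13 (1.06 to 1.21) in young mice. Averaging CPM over cells in place of summing UMIs turned the aged value to -0.17, so its direction in aged mice depended on how cells were weighted.

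Eno1 (chr4:150236721-150248879, plus strand) encodes enolase 1, which makes phosphoenolpyruvate. Pkm (chr9:59656368-59679375, plus strand) encodes pyruvate kinase M, which forms pyruvate and ATP, and Ldha (chr7:46841475-46855627, plus strand) encodes the lactate-forming subunit of lactate dehydrogenase. Eno1 was at 99.7 CPM in aged CA against 66.5 CPM in aged sham, and at 99.1 CPM in young CA against 48.6 CPM in young sham. Pkm was at 173 CPM in aged CA against 91.9 CPM in aged sham, and at 233 CPM in young CA against 84.4 CPM in young sham. Ldha was at 121 CPM in aged CA against 73.2 CPM in aged sham, and at 128 CPM in young CA against 57.6 CPM in young sham. All 3 were higher after CA at both ages. In aged mice the ratios were 1.499 (1.43 to 1.58) for Eno1, 1.88 (1.81 to 1.96) for Pkm and 1.66 (1.58 to 1.74) for Ldha. In young mice they were 2.04 (1.96 to 2.12) for Eno1, 2.76 (2.68 to 2.84) for Pkm and 2.23 (2.15 to 2.31) for Ldha. Of the later enzymes, Eno1 and Ldha reached nearly the same level in the 2 CA libraries.

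**Figure D2:**
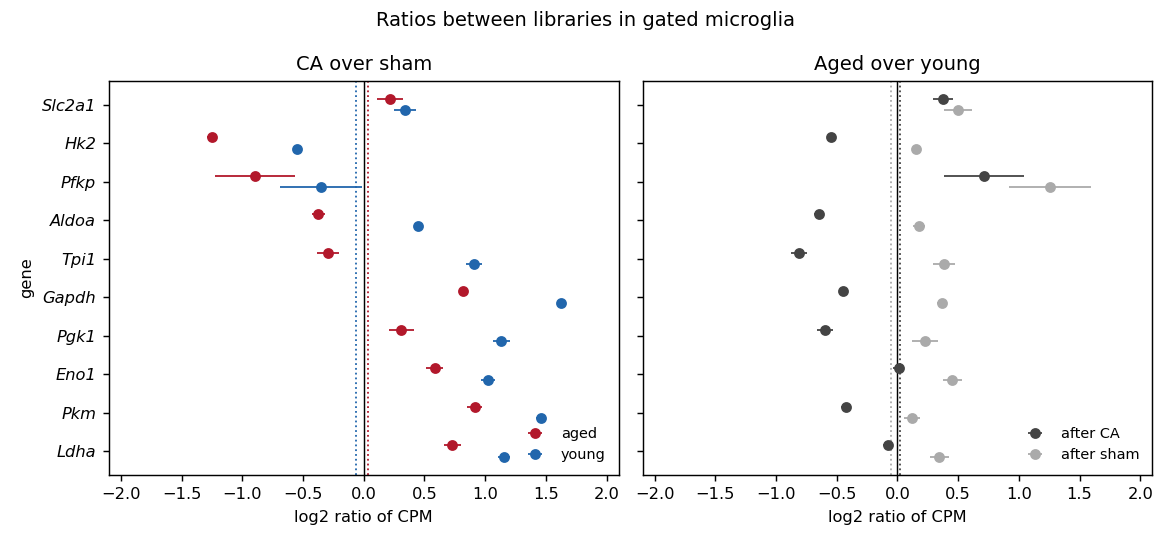
Log2 ratios of CPM in gated microglia with exact 95% intervals, CA over sham on the left (aged red, young blue) and aged over young on the right (after CA dark, after sham light). Dotted lines mark the median of all measured genes in each comparison. In the left panel Hk2 lies left of 0 at both ages and the genes from Gapdh to Ldha lie right of it, and in the right panel all 10 members lie right of 0 after sham and 7 lie left of it after CA.

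The members were set against all genes measured in the same comparisons. The members had been chosen with earlier results of these data known, so these shares are a description and not a test. With a gene counted as measured at 10 CPM or more in either library, 9 of the 10 members were measured, and all 10 had a ratio. In young mice 5 of the 10 were at least 2-fold higher after CA, against 6.48% of 9555 measured genes, and 0 were at least 2-fold lower, against 3.04%. In aged mice 0 were at least 2-fold higher, against 6.45% of 9773 measured genes, and 1, Hk2, was at least 2-fold lower, against 9.63%. The median log2 ratio over the members was 0.26 in aged mice and 0.97 in young mice, while over all measured genes it was 0.03 in aged mice and -0.06 in young mice. By direction alone, 6 members were above 1 in aged mice (52.5% of all genes) and 4 below (47.5%), and 8 were above in young mice (44.1%) and 2 below (55.9%). With TMM scaling the median over all genes moved to 0.19 in aged and 0.06 in young mice. Genes past 2-fold were then 890 higher and 758 lower in aged mice, against 630 and 941 without it, and 770 higher and 215 lower in young mice, against 619 and 290. TMM scaling turned the direction of none of the 10 members at either age, and put Pkm in aged mice (log2 ratio 1.07) and Tpi1 in young mice (1.03) past 2-fold.

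Other RNA in the gated microglia also differed with the groups. The 12 microglial markers, all detected in each library, summed to 10050 CPM in aged CA against 20400 CPM in aged sham, and to 15360 CPM in young CA against 24590 CPM in young sham. Ribosomal protein genes summed to 96660 CPM in aged CA against 50830 CPM in aged sham, and to 82140 CPM in young CA against 38150 CPM in young sham. The 9 markers of monocytes or macrophages, all detected, summed to 26.2 CPM in aged CA, 36.6 CPM in aged sham, 67.4 CPM in young CA and 18.3 CPM in young sham. Neutrophil markers summed to 190 CPM in aged CA, with Ly6g at 0, 593 CPM in aged sham, 397 CPM in young CA and 532 CPM in young sham. What part these shifts had in the ratios was not tested.

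The share of microglia with a molecule of each gene was compared after depth had been made equal. Cells were thinned to 2000 UMIs each, leaving out 172 shallower cells in aged CA, 1671 in aged sham, 502 in young CA and 732 in young sham. Hk2 was then seen in 30.9% of microglia in aged CA against 56.9% in aged sham, and in 41.5% in young CA against 54.0% in young sham. Without thinning the shares were 72.5% in aged CA and 70.7% in aged sham, and 81.0% in young CA and 81.7% in young sham, so the unthinned shares differed far less. Gapdh was seen in 46.5% in aged CA and 35.2% in aged sham, and in 48.1% in young CA and 27.0% in young sham, after thinning. In neurons thinned the same way, a class that should lack most microglial RNA, a Hk2 molecule was found in 0 of 119 cells in aged CA, which allows a share of up to 2.52%, in 1 of 65 in aged sham, in 0 of 53 in young CA, which allows up to 5.66%, and in 2 of 34 in young sham. Without thinning, Hk2 was found in 1.46% of neurons in aged CA, 8.14% in aged sham, 6.06% in young CA and 7.32% in young sham. The median neuron held 26560, 18560, 20040 and 26660 UMIs in the same order.

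The ratios of the later enzymes varied with the depth of the cell more than that of Hk2 did. In 5 bands of UMIs per cell, Hk2 was lower after CA in all 5 in aged mice, with log2 ratios from -1.33 to -0.44, and in 4 of 5 in young mice. The exception was the shallowest band of 500 to 2000 UMIs in young mice, where Hk2 was at 392 CPM in young CA and 323 CPM in young sham. Gapdh, Eno1, Pkm and Ldha were higher after CA in the 4 upper bands in young mice, and in the shallowest band their log2 ratios were 0.06, 0.05, 0.02 and 0.19, with intervals that took in 0. In aged mice Gapdh was higher only from 5000 UMIs upwards: it was at 144 CPM in aged CA and 214 CPM in aged sham among cells of 2000 to 5000 UMIs, but at 771 CPM in aged CA and 331.5 CPM in aged sham among cells of 20000 or more. Eno1 and Ldha were also below 1 in 2 of the 5 bands in aged mice, Pkm in 1, Pgk1 in 3 and Tpi1 in all 5. The log2 ratio of Pgk1 ran from -1.79 in the shallowest to 0.57 in the deepest band.

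**Figure D3:**
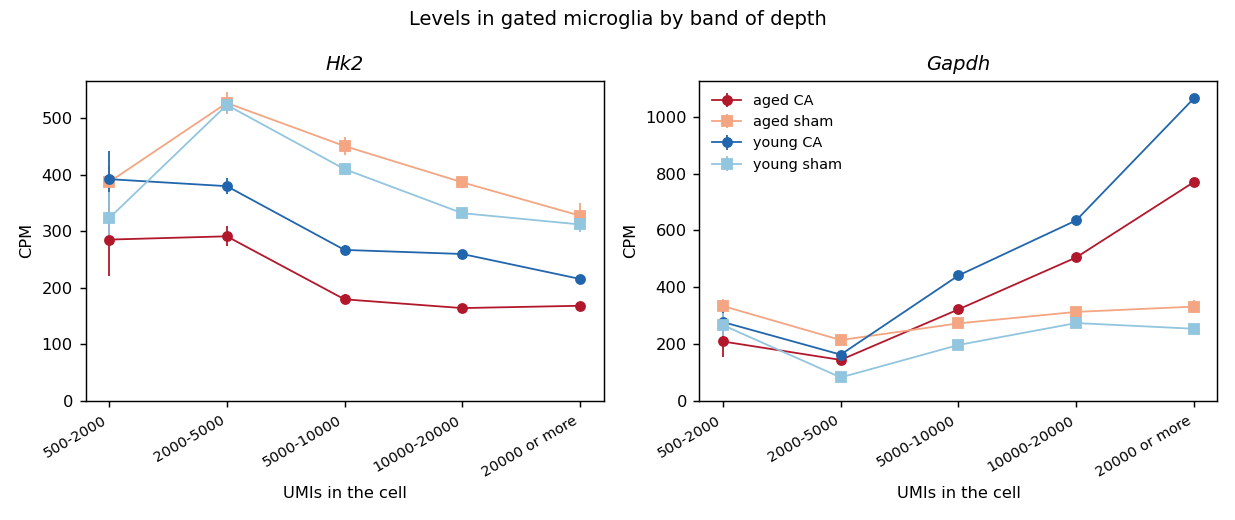
Levels of Hk2 and Gapdh in gated microglia (CPM) by the number of UMIs in the cell, for the 4 libraries, with exact 95% Poisson intervals. The Hk2 lines for CA run below those for sham except in the shallowest band in young mice. The Gapdh lines for CA climb from the second band to 771 CPM in aged and 1066 CPM in young mice. Those for sham also rise from that band, from 214 to 331.5 CPM in aged and from 81.9 to 253.5 CPM in young mice in the deepest, and stay between 81.9 and 334 CPM.

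The second question was how age set the level in each treatment. After sham all 10 members were higher in aged than in young microglia (41.4% of 9476 measured genes were) and 0 were lower (58.6%), with a median log2 ratio of 0.36 against -0.05 for all measured genes. The differences were small: from 1.09-fold for Pkm (1.04 to 1.14) to 1.41-fold for Slc2a1 (1.30 to 1.53) among members that reached 10 CPM. Only the scarce Pfkp was past 2-fold, at 2.39 (1.89 to 3.02), and this did not hold in deeper cells. Pfkp did not reach 10 CPM and so was not among the measured genes, of which 3.1% were at least 2-fold higher. Its log2 ratio was -0.07 in cells of 5000 to 10000 UMIs, 0.39 in those of 10000 to 20000, both with intervals that took in 0, and 0.09 over all cells of at least 5000 UMIs. Summed neuronal markers in the same microglia were 194 CPM in aged sham against 68.2 CPM in young sham, and their part in it was not tested. In cells of at least 5000 UMIs the median over the members was 0.23 and all 10 ratios were above 1.

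After CA the order was reversed for most of the set. In aged against young microglia, 7 members were lower and 3 higher (47.3% and 52.7% of 9413 measured genes), with a median log2 ratio of -0.44 against 0.02 for all measured genes, and 0 members were past 2-fold in either direction (2.32% of genes higher, 3.3% lower). Tpi1 was lowest at 0.569 (0.543 to 0.597), followed by Aldoa at 0.639 (0.622 to 0.658), Pgk1 at 0.662 (0.632 to 0.693) and Hk2 at 0.684 (0.668 to 0.700). Gapdh at 0.735 and Pkm at 0.744 were lower by less, and Ldha at 0.946 (0.919 to 0.975) was near parity. Eno1 at 1.01 (0.974 to 1.04) did not differ beyond counting error, and Slc2a1 was higher at 1.29 (1.22 to 1.37). The scarce Pfkp was also higher, at 1.64 (1.31 to 2.06), on 150 UMIs in aged CA and 165 in young CA. Hk2, Aldoa, Gapdh, Pgk1 and Tpi1 were lower in aged microglia in all 5 depth bands after CA. The comparisons of age and of treatment use the same 4 libraries and are not independent of each other.

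Larger shares of microglia passed the gates for activated states after CA, and the genes varied with these states inside each library. A cell was placed in a state when it held at least 3 genes of a marker list, and set against cells with at most 1. None of the members is on these lists. The Spp1 and Lpl list also held Gpnmb, Itgax, Cst7, Fabp5, Igf1 and Lgals3. The Ccl3 and Ccl4 list also held Tnf, Il1a, Il1b, Cxcl2, Cd83 and Nfkbiz. A cell of either state therefore need not hold the genes that name it. Microglia of the Spp1 and Lpl state (named for osteopontin and lipoprotein lipase, of phagocytic microglia) made up 7.49% in aged CA against 1.25% in aged sham, and 16.0% in young CA against 0.623% in young sham. Cycling microglia made up 0.643% in aged CA and 0.526% in aged sham, but 8.17% in young CA and 0.257% in young sham. Interferon-responsive microglia made up 37.6% in aged CA and 2.69% in aged sham, and 43.9% in young CA and 1.14% in young sham. Those of the Ccl3 and Ccl4 state made up 66.2% in aged CA and 16.5% in aged sham, and 28.1% in young CA and 7.72% in young sham. These shares were not matched for depth, and the median microglial cell held 10570 UMIs in aged CA, 3548 in aged sham, 9606 in young CA and 6126 in young sham. The summed level of the list, which is scaled to depth, was higher after CA at both ages for the Spp1 and Lpl, interferon and Ccl3 and Ccl4 lists. For cycling it was 32.5 CPM in aged CA and 39.1 CPM in aged sham, opposite to the shares, and 339.5 CPM in young CA and 23.3 CPM in young sham.

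In the Spp1 and Lpl state the 7 members from Aldoa and Tpi1 to Ldha were higher in all 4 libraries and Hk2 was lower in all 4. Pgk1 was 1.97-fold higher in the state cells in aged CA, 4.97-fold in aged sham, 3.22-fold in young CA and 5.25-fold in young sham. Pkm was 2.03-fold, 4.13-fold, 3.42-fold and 3.49-fold higher in the same order of libraries, and Tpi1 1.60-fold, 4.01-fold, 2.99-fold and 5.01-fold. Of these 3 genes, each had its smallest fold in aged CA. Hk2 was at 0.862, 0.741, 0.796 and 0.859 of the level in the other cells in that order. Slc2a1 was 3.38-fold higher in aged sham and 2.82-fold in young sham, but only 1.06-fold (0.927 to 1.21) in aged CA and 1.19-fold (1.09 to 1.29) in young CA. State cells were deeper, with a median of 17230 against 9362 UMIs in aged CA and 18270 against 7381 in young CA. With cells sorted into 5 groups of like depth and compared within them, the folds in aged CA were 1.48 for Pgk1, 1.52 for Pkm and 1.49 for Tpi1, in young CA they were 2.42, 2.31 and 2.41 for the same genes, and Hk2 lay between 0.830 and 0.978 over the 4 libraries. The sham libraries held only 69 aged and 51 young cells of this state.

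**Figure D4:**
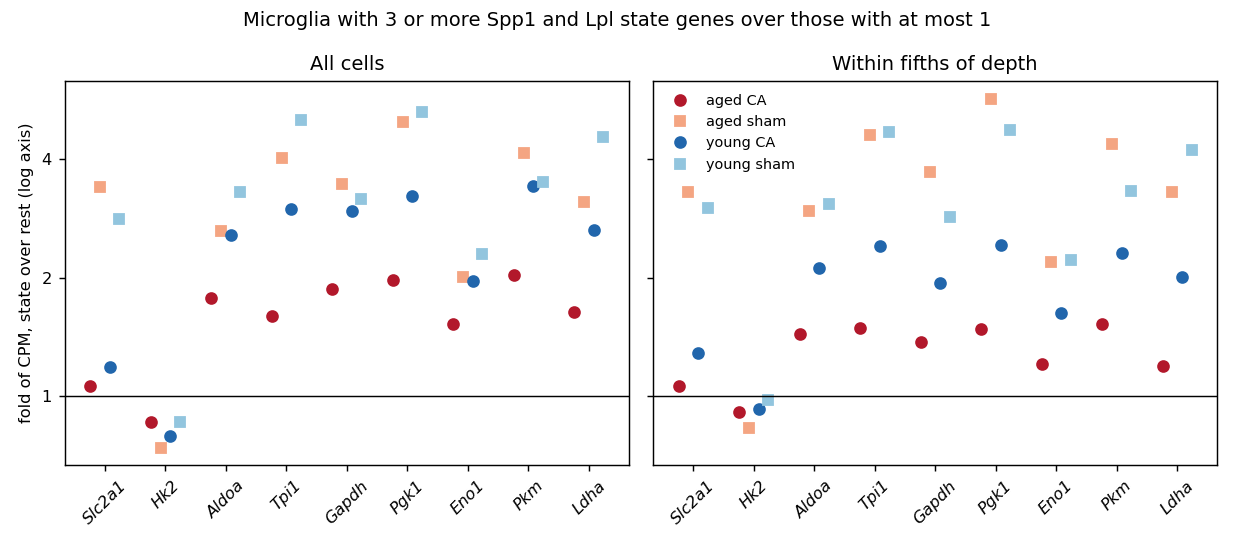
Fold of CPM in microglia with at least 3 Spp1 and Lpl state genes over microglia with at most 1, per gene and library, on a log axis, for all cells (left) and within 5 groups of like depth (right). Pfkp is left out for its low counts. Hk2 lies below 1 in all 4 libraries in both panels, the genes from Aldoa to Ldha lie above it, and aged CA has the smallest folds among the later enzymes.

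Cycling cells held less Hk2 and more Gapdh, Pgk1, Pkm, Ldha and Tpi1 in all 4 libraries. Hk2 in cycling microglia was at 0.705 of the other cells in aged CA, 0.431 in aged sham, 0.719 in young CA and 0.585 in young sham. Gapdh was 1.66-fold, 2.63-fold, 2.09-fold and 2.46-fold higher in the same order, and Tpi1 1.42-fold, 2.22-fold, 2.29-fold and 2.11-fold. At like depth the Gapdh folds were 1.19, 2.74, 1.44 and 2.38 in that order. Eno1 was at 0.921 (0.475 to 1.61) in young sham, and in aged CA its fold of 1.32 became 0.975 at like depth. Aldoa did not follow either: it was 1.44-fold higher in young CA (1.39 to 1.49), 1.11-fold at like depth, and its interval took in 1 in the other 3 libraries. Only young CA had many cycling cells, 753, against 21 to 32 in the other libraries.

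The interferon and Ccl3 and Ccl4 states carried smaller differences. In young CA the interferon cells held 1.36-fold more Gapdh and 1.24-fold more Ldha, which became 0.953 and 0.881 at like depth. In aged CA they held 1.66-fold more Gapdh and 1.80-fold more Ldha, and 1.26-fold and 1.39-fold at like depth, and Hk2 was also higher there, at 1.22-fold (1.17 to 1.28). The cells of the Ccl3 and Ccl4 state held 1.38-fold more Gapdh in aged CA and 1.62-fold more in young CA, which became 0.903 and 1.04 at like depth.

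Leaving out all state cells gave smaller ratios for most members. Among microglia with at most 1 gene of every state list the median log2 ratio of CA to sham was -0.17 in aged mice and 0.21 in young mice. Hk2 was still lower, with log2 ratios of -1.10 in aged and -0.33 in young mice. Gapdh was 0.15 and 0.55, Eno1 0.12 and 0.62, and Pkm 0.33 and 0.33 for aged and young mice in that order. Pgk1 was -0.43 in aged and 0.13 in young mice, and Aldoa was negative at both ages as given above. These cells numbered 488 in aged CA, 3449 in aged sham, 2143 in young CA and 5980 in young sham, and were shallow, with medians of 3401, 2345, 3132 and 4478 UMIs in the same order. How far state and depth each set the response was not tested.

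Genes around the members were read from lists of the neighbouring steps. Of 18 other glycolysis enzymes, 8 were measured in aged mice, of which 3 were higher and 5 lower after CA, and 6 in young mice, of which 4 were higher and 2 lower. Gpi1, which makes fructose 6-phosphate, was at 101 CPM in aged CA against 63.8 CPM in aged sham and at 106 CPM in young CA against 53.8 CPM in young sham. Pgam1, the mutase between Pgk1 and Eno1, was near equal in aged mice at 62.4 CPM in CA and 61.0 CPM in sham, and 1.76-fold higher after CA in young mice. Aldoc, the brain form of aldolase, stayed under 2 CPM in all 4 libraries. The liver-type phosphofructokinase Pfkl was at 20.4 CPM in aged CA and 41.1 CPM in aged sham, and at 38.8 CPM in young CA and 31.6 CPM in young sham. Hk1 and Hk3, the other hexokinases of the list that were measured, were lower after CA at both ages like Hk2: Hk3 was 0.405 of sham in aged and 0.675 in young mice, and Hk1 0.658 in aged and 0.698 in young mice. The third enzyme of the list past 2-fold lower in aged mice was Eno3, at 5.79 CPM in CA and 13.6 CPM in sham, named after its values were seen. Ldhb, the subunit that favours pyruvate, was at 0.892 of sham in aged and 1.20 in young mice.

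Transporters went in both directions. Slc2a3 (GLUT3) was at 97.1 CPM in aged CA against 22.4 CPM in aged sham and at 75.8 CPM in young CA against 22.2 CPM in young sham, a ratio of 4.34 (4.01 to 4.69) in aged and 3.41 (3.22 to 3.61) in young mice. Slc2a5 (GLUT5, a fructose transporter used as a microglial marker) was at 40.5 CPM in aged CA against 300.2 CPM in aged sham and at 109 CPM in young CA against 277 CPM in young sham. Slc16a7, a monocarboxylate transporter, was at 33.3 CPM in aged CA and 134 CPM in aged sham, and at 63.9 CPM in young CA and 134 CPM in young sham. Slc2a6 (GLUT6) was 22.4-fold higher in young CA than young sham (16.8 to 30.7) and did not reach 10 CPM in aged mice, with 9.38 CPM in aged CA and 2.40 CPM in aged sham. Slc16a3, the lactate exporter MCT4, was at 0.916 of sham in aged and 1.30 in young mice. Of the 8 transporters, 6 were measured at each age, 3 higher and 3 lower after CA, with median log2 ratios of 0.11 at both ages.

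Counts in the further lists are to be read against the 52.5% of all measured genes that were above 1 in aged and 44.1% in young mice. Of 12 regulators, 6 of 9 measured in aged and 5 of 8 in young mice were higher after CA. Pfkfb3, which makes the activator of phosphofructokinase, was at 249 CPM in aged CA against 127 CPM in aged sham and at 133 CPM in young CA against 92.4 CPM in young sham. Tigar, which opposes it, was 2.26-fold higher in aged CA than aged sham at 12.5 CPM and 5.51 CPM. Txnip, which restrains glucose uptake, was lower after CA at 0.637 of sham in aged and 0.604 in young mice, and Hif1a, the hypoxia-inducible factor subunit, was at 1.18 in aged and 1.11 in young mice. Of 8 measured hypoxia targets outside glycolysis in young mice, 5 were higher and 3 lower, and of 9 in aged mice 5 were higher and 4 lower. Ddit4, which is also induced by glucocorticoids, was 22.2-fold higher in aged mice (18.7 to 26.5) and 8.57-fold in young mice (8.01 to 9.17), while P4ha1, a collagen hydroxylase singled out after its values were seen, was lower at 0.498 of sham in aged and 0.614 in young mice. In the pentose phosphate branch 5 of 7 genes in aged and 7 of 7 in young mice were higher after CA, with median log2 ratios of 0.52 and 0.57. Of the 21 genes of pyruvate entry and the citric acid cycle, 17 in aged and 18 in young mice were higher, with medians of 0.30 and 0.23, and 0 were past 2-fold.

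The age comparisons of these lists singled out other genes. After sham, Myc was at 25.3 CPM in aged and 12.2 CPM in young microglia, Eno3 at 13.6 CPM and 9.29 CPM and Bnip3 at 21.9 CPM and 15.4 CPM. Ddit4 was lower, at 4.22 CPM in aged sham and 14.5 CPM in young sham, and Sucla2 and Slc2a8 followed with log2 ratios of -0.34 each. After CA, Pfkfb3 was 1.87-fold higher in aged microglia and Hilpda and Pdhb were next, with log2 ratios of 0.76 and 0.53. Slc2a5, Slc16a7 and Pfkl were lower in aged microglia after CA, with log2 ratios of -1.43, -0.94 and -0.93.

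The third question was which brain immune cells carry these genes. Classes with at least 20 gated cells were compared within a library. Of the 10 leading genes of each class, 0 were markers of another class. Because the gates selected on these lists, neither this nor the counts of own markers are an independent check of identity. Own markers were 8 of the 10 in neutrophils and in T cells, and 5 in border-associated macrophages. They were 4 in monocytes or macrophages and in B cells, and 1 in neurons. The leading genes of monocytes or macrophages also held Gpnmb, Cxcl10 and Rsad2, which are on the state lists of microglia. Monocytes or macrophages numbered 46 in aged CA and 101 in young CA, and neutrophils 49 in aged CA, 31 in aged sham and 20 in young CA. T cells numbered 96 in aged CA and 93 in aged sham, B cells 34 and 30 in the same libraries, and border-associated macrophages 31 in aged CA. Neurons, carried through the sort, numbered 137 in aged CA, 86 in aged sham, 66 in young CA and 41 in young sham. The young sham library had no immune class other than microglia at this size, so blood-derived cells could be compared between CA and sham only in aged mice.

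Hk2 was highest in microglia in all 4 libraries, with neurons the only other class of that size in young sham. In aged CA it was at 176 CPM in microglia, 126 CPM in monocytes or macrophages, 60.3 CPM in border-associated macrophages, 44.9 CPM in neutrophils, 24.0 CPM in B cells and 7.15 CPM in T cells. In young CA it was at 257 CPM in microglia, 114 CPM in monocytes or macrophages and 56.5 CPM in neutrophils. In neurons it lay between 0.539 CPM and 3.29 CPM over the 4 libraries. In aged sham it was at 419 CPM in microglia, 138 CPM in neutrophils, 20.4 CPM in T cells and 15.6 CPM in B cells. Microglia and monocytes differed beyond counting error in both CA libraries, but the intervals of border-associated macrophages (33.0 to 101 CPM) and neutrophils (30.5 to 63.7 CPM) in aged CA overlapped.

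Pfkp ran the other way. It was highest in neurons in every library, at 187 CPM in aged CA, 186 CPM in aged sham, 212 CPM in young CA and 161 CPM in young sham. T cells held 96.6 CPM in aged CA and 104 CPM in aged sham, and monocytes or macrophages 49.2 CPM in aged CA and 64.5 CPM in young CA. Monocytes held 18.1-fold more than microglia in aged CA (13.2 to 24.5) and 38.9-fold more in young CA (30.5 to 49.6). The summed level of 10 neuronal markers in gated microglia was 61.9 CPM in aged CA, 194 CPM in aged sham, 43.0 CPM in young CA and 68.2 CPM in young sham, with all 10 detected in each library, which is the order of microglial Pfkp except that young sham exceeded aged CA. The part of neuronal RNA in the microglial Pfkp values was not tested.

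**Figure D5:**
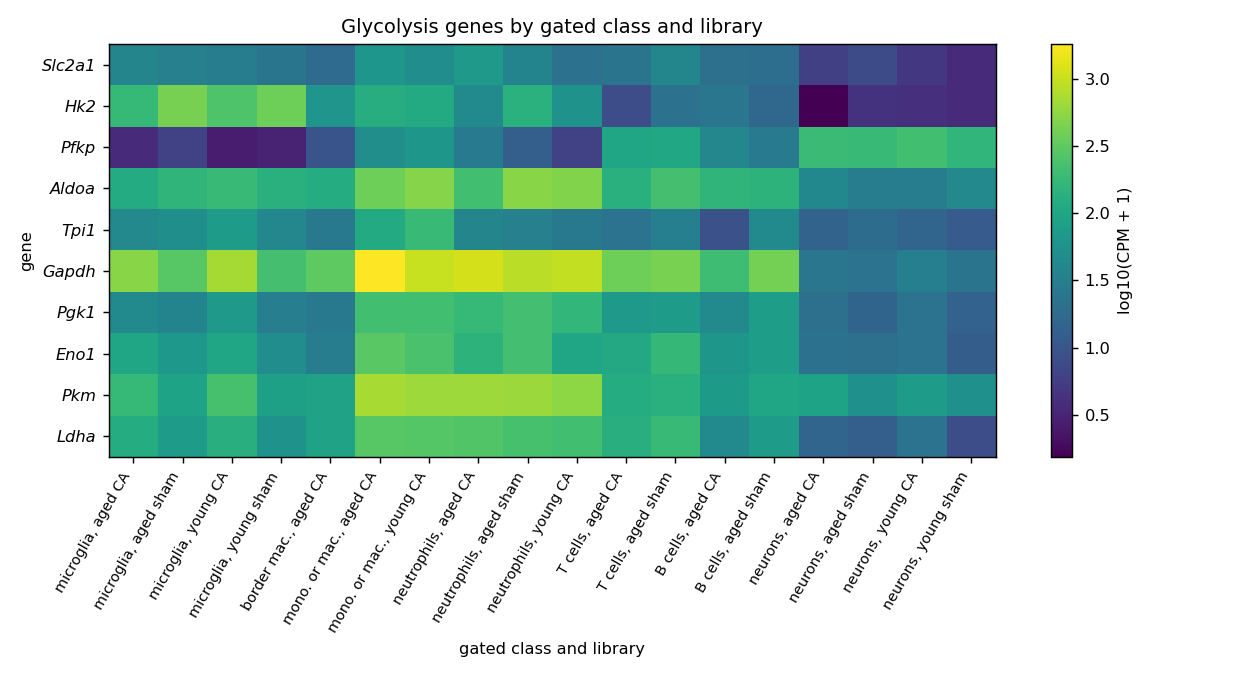
Levels of the 10 genes, as log10(CPM + 1), in every class and library with at least 20 gated cells, leaving out oligodendrocyte-lineage and erythroid cells. Hk2 is brightest in microglia and darkest in neurons, Pfkp is brightest in neurons and darkest in microglia, and in the CA libraries the other members are brightest in monocytes or macrophages, apart from Slc2a1 in aged CA, where neutrophils are.

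In the CA libraries the remaining 8 members were highest in monocytes or macrophages, or in neutrophils, with microglia taken as a whole. In monocytes or macrophages, Gapdh was at 1809 CPM in aged CA and 990 CPM in young CA, which was 3.53-fold (3.38 to 3.68) and 1.42-fold (1.35 to 1.49) above microglia of the same libraries. Pkm was 4.15-fold above microglia in aged CA and 2.72-fold in young CA, Pgk1 4.81-fold and 3.12-fold, Aldoa 3.20-fold and 2.69-fold, and Ldha 2.34-fold and 2.19-fold. Monocytes or macrophages ranked first for these 8 genes in both CA libraries except for Slc2a1 in aged CA, where neutrophils had 68.0 CPM (49.99 to 90.5) and monocytes 61.9 CPM (48.9 to 77.3), which did not differ beyond counting error. Their cells were also the deepest of the immune classes, with medians of 26710 UMIs in aged CA and 19050 in young CA. In young CA, microglia of 20000 UMIs or more held 1066 CPM of Gapdh, above the 990 CPM of monocytes or macrophages. Microglia in the Spp1 and Lpl state held 1155 CPM there. Pkm did not follow, at 358 CPM in these deepest microglia against 633 CPM in monocytes or macrophages. In aged CA the deepest microglia held 771 CPM of Gapdh, below the 1809 CPM of monocytes or macrophages.

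Neutrophils separated the members from each other. They held 1148 CPM of Gapdh in aged CA, 879 CPM in aged sham and 955 CPM in young CA, and 640 CPM, 622 CPM and 539 CPM of Pkm in the same order. In aged sham Pkm was 6.77-fold (5.72 to 7.97) and Pgk1 6.00-fold (4.47 to 7.90) above microglia. Tpi1 in neutrophils was not above microglia, at 0.903 (0.589 to 1.33) in aged CA, 0.637 (0.275 to 1.26) in aged sham and 0.351 (0.114 to 0.819) in young CA. Between CA and sham in aged mice, neutrophil Hk2 was at 44.9 CPM in CA and 138 CPM in sham, a ratio of 0.324 (0.193 to 0.544). Aldoa was also lower there, at 210 CPM in CA and 513 CPM in sham, and Gapdh was 1.31-fold higher (1.12 to 1.53). The aged sham neutrophils were shallow, with a median of 3603 UMIs against 13580 in aged CA.

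In aged T cells Hk2, Aldoa, Eno1 and Ldha had CA to sham intervals that left out 1, all 4 of them lower after CA. The share of all genes that did so in T cells is not given here, so the count cannot be set against it. The same holds for the group ratios in neutrophils, B cells, neurons and monocytes or macrophages. In these T cells Hk2 was at 7.15 CPM in CA and 20.4 CPM in sham, on 6 and 18 UMIs. In the same cells, Aldoa was at 137 CPM in CA and 227 CPM in sham, Eno1 at 109 CPM and 169 CPM, and Ldha at 128 CPM and 186 CPM, ratios of 0.604 (0.476 to 0.764), 0.642 (0.489 to 0.839) and 0.686 (0.532 to 0.880). Gapdh in T cells was at 380 CPM in CA and 440 CPM in sham, with an interval that took in 1. In B cells Gapdh was at 200.1 CPM in CA and 407 CPM in sham, a ratio of 0.491 (0.347 to 0.685), and the other members that had a ratio had intervals that took in 1. In neurons Pkm was higher after CA at both ages, at 92.5 CPM in aged CA against 53.1 CPM in aged sham and 73.6 CPM in young CA against 52.3 CPM in young sham, ratios of 1.74 (1.40 to 2.17) and 1.41 (1.01 to 1.98).

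Monocytes differed by age in the same direction as microglia for Aldoa and Tpi1 but not for Gapdh. After CA, aged against young, Tpi1 was at 114 CPM and 183 CPM, Aldoa at 383 CPM and 502 CPM, and Gapdh at 1809 CPM and 990 CPM. The ratios were 0.621 (0.507 to 0.757) for Tpi1, 0.762 (0.681 to 0.851) for Aldoa and 1.83 (1.72 to 1.94) for Gapdh, while those in microglia were 0.569, 0.639 and 0.735. Eno1 at 1.24 (1.08 to 1.43) and Pkm at 1.14 (1.04 to 1.24) were also higher in aged monocytes. Hk2, Pfkp, Pgk1, Ldha and Slc2a1 in monocytes had intervals that took in 1.

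A looser gate, which admitted cells whose next marker list reached 0.8 of the best and was chosen after the data were seen, added cells to the classes. It held 65 monocytes or macrophages in aged CA, 23 in aged sham and 267 in young CA, with Gapdh at 1804 CPM, 1018 CPM and 1051 CPM and Hk2 at 122 CPM, 146 CPM and 111 CPM in that order. It also held border-associated macrophages in both young libraries, with Hk2 at 91.4 CPM in young CA (62.1 to 130, 43 cells) against 190 CPM in young sham (149 to 239, 44 cells). The stricter gate held only 14 of this class in young CA and 4 in young sham. Most were thus cells with a second marker list between 0.5 and 0.8 of the best. The part of microglial RNA in their Hk2 levels was not tested. Some low levels moved by over 1.5-fold with this gate. Pfkp in microglia was 8.74 CPM in aged sham, against 5.05 CPM with the stricter one used throughout, and 2.66 CPM in young CA, against 1.66 CPM. Tpi1 in young CA neutrophils was 52.7 CPM, against 25.7 CPM.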

How the data were processed

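Droplet libraries (10x Chromium 3' v3.1) were deposited as 4 matrices of UMI counts per gene and barcode. Per the submitters' processing notes, the authors used Cell Ranger 7.1.0 and mm10. The annotation version and whether intronic reads were counted are not given in the sources used here. Deposited counts were summed as they stood: barcodes under 500 UMIs or 200 genes were dropped, as were those over 10% mitochondrial UMIs. A cell joined a class when at least 3 of its markers were seen and the next list scored at most 0.5 of the best. No doublet caller was run, and the gate drops cells with 2 strong lists. Shared barcode sequences numbered 15 to 32 per pair of libraries.

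Levels are CPM with exact 95% Poisson intervals and ratios have exact conditional binomial intervals. A gene at 10 CPM or more in either library was measured, and a ratio needed more than 3 UMIs on each side. Thinning used a fixed random seed. Ratios and intervals were tested on simulated data. With 1 pooled library a group, no test of groups was made. All members are named, plus the 3 highest and 3 lowest ratios per comparison over the pooled lists of neighbouring genes, and 12 fixed genes. Members, marker lists and pathway lists were chosen with earlier results of these data known. Promoter sequences are from RefSeq, build GRCm38.p6. Tools were Python 3.11.15, numpy 2.4.6, scipy 1.17.1 and matplotlib 3.10.9, with edgeR 4.0.16 in R 4.3.3 for TMM factors only.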

Additional observations from a re-analysis of the deposited data

Results flagged for a closer look

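Aldoa and Tpi1 in microglia had CA to sham ratios of opposite sign at the 2 ages. The log2 ratio was -0.37 in aged and 0.45 in young mice for Aldoa, and -0.29 in aged and 0.91 in young mice for Tpi1. Without state cells Aldoa was negative at both ages, at -1.004 in aged and -0.18 in young mice, and Tpi1 was -0.37 in aged and 0.02 in young mice. Aldoa in young mice was also below 0 in 2 of 5 depth bands. With 1 library a group the difference was not tested.

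In the age comparison 7 of the 10 members had opposite signs after CA and after sham, and these differences were not tested. Of all measured genes, 41.4% were above 1 after sham and 47.3% were below 1 after CA. The share that did both is not given here, so the count cannot be set against it. The aged to young log2 ratio was -0.55 after CA and 0.15 after sham for Hk2, -0.65 and 0.18 for Aldoa, and -0.81 and 0.39 for Tpi1. It was -0.45 after CA and 0.37 after sham for Gapdh, -0.60 and 0.23 for Pgk1, -0.43 and 0.12 for Pkm, and -0.080 and 0.35 for Ldha. The 2 sets of signs come from the same 4 libraries, in which median depth per microglial cell also differed: 10570 UMIs in aged CA, 3548 in aged sham, 9606 in young CA and 6126 in young sham. Without state cells the ratio after CA was 0.084 for Pkm, so its sign was then the same as after sham, and it was -0.077 for Gapdh and -0.046 for Tpi1. The part of depth and of state was not tested.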

How the results depend on the processing

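The median log2 ratio over the members was recomputed under 12 alternatives, of which 3 were chosen after seeing the data: cells of at least 5000 UMIs, cells with at most 1 marker of every state list, and the deepest 5% of cells left out. The looser class gate was also added then. For CA against sham in young mice (0.97) it was 1.09 with TMM scaling, 1.05 without mitochondrial and ribosomal protein genes, 0.81 as a mean over cells, 0.83 on the log2(CPM + 10) scale, 0.89 without the deepest cells and 0.21 without state cells. In aged mice (0.26) it was 0.42 with TMM and 0.056 as a mean over cells, and it reversed to -0.17 without state cells. For aged against young after sham (0.36) it was 0.54 as a mean over cells and 0.23 from 5000 UMIs. After CA (-0.44) it was -0.40 without mitochondrial and ribosomal protein genes, -0.31 as a mean over cells, -0.47 at up to 20% mitochondrial UMIs, -0.39 with the stricter gate, -0.36 without the deepest cells and -0.052 without state cells. Single members were counted as reversed in 6 of 480 recomputed ratios, with 152 counted as moved and 322 as the same. For CA against sham, Pfkp turned to 0.025 in young mice with the stricter gate and 0.12 in aged mice from 5000 UMIs. Aldoa turned to -0.18 in young mice without state cells. Pgk1 in aged mice turned to -0.17 as a mean over cells and -0.43 without state cells. For aged against young after CA, Pkm turned to 0.084 without state cells. Eno1 in that comparison, at 0.0098, ran from -0.0085 to 0.049 over the settings, so its sign also turned, and it is not among the 6. The cause was not tested. Genes past 2-fold numbered 1571 for CA against sham in aged mice, 909 in young mice, 529 for aged against young after CA and 312 after sham; with a filter of 2 CPM these were 2888, 1625, 1134 and 952. TMM moved the median of all genes to 0.19 in aged mice, against 0.03, and to 0.06 in young mice, against -0.06. Leaving out barcodes rich in haemoglobin removed 0 microglia. No paired analysis was possible because each group was 1 pooled library, and no replicate could be left out. Depth limits Pfkp in microglia and every class under 50 cells, where a few UMIs decide a ratio.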

Other observations

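Genes with a pattern like the members' were sought over the 7 class and library points of at least 50 immune cells, 4 of them microglia, with 5810 genes that reached 50 CPM in any point. Each gene's log2(CPM + 10) was correlated with the mean of the members, which is a description over points that share libraries and depth. The centred member mean was 1.15 in young CA monocytes or macrophages and between -0.55 and 0.11 at the other points, so that point lay far from the rest. The 8 closest were Rap2b (Pearson r = 0.996), Anxa5 (0.989), Hpcal1 (0.988), Dbi (0.983), Prdx2 (0.982), Phf11a (0.981), Chmp2a (0.975) and Rnf114 (0.975). Of the members themselves Pkm (0.95), Aldoa (0.95) and Pgk1 (0.94) were closest to their own mean, to which each contributes, and Gapdh, Ldha, Eno1 and Tpi1 lay between 0.86 and 0.89. Pfkp reached 0.40 and Hk2 -0.10, so over these points Hk2 did not follow the mean of the set. Slc2a1 did not reach 50 CPM in any of the points and was not among the genes compared.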
